A study of Aspergillus nidulans with 4 samples.

Results

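AN8910 is annotated as a putative polyketide synthase gene of the filamentous fungus Aspergillus nidulans, and AN8909, AN8908, AN8907, AN8906 and AN8905 follow it in that order along the chromosome. These 6 genes were taken by identifier from the 10930 genes of the authors' deposited table. They were chosen by their lower read values in the mpkA deletion strain than in its parent, so their differences between strains are described here and not tested. RNA came from strain AN1404, which lacks mpkA, and from AN1405, its parental strain, with 2 libraries each. Mycelium of both strains was grown by shaking in rich medium brought to a low pH, without added stress, and was harvested late in exponential growth. The labels do not give the marker used for the deletion, how many transformants were examined, or which libraries were biological and which technical replicates.

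Polyketide synthases are large enzymes that join acetyl and malonyl units, carried by coenzyme A, into carbon chains from which pigments, toxins and antibiotics are made. In filamentous fungi the synthase gene often lies in a cluster with genes for tailoring enzymes, such as cytochrome P450 monooxygenases and other oxidases, and for transporters. MpkA is the MAP kinase at the end of the cell wall integrity cascade, which relays stress at the cell surface. No product of AN8910 is named in the annotation text of the files.

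The libraries held between 31609185 and 34871842 reads on genes. Each library's reads were recovered from the deposited strain means, as whole reads, and the libraries are called a and b without a replicate number. The deleted gene mpkA (AN5666) had 6993 and 6437 reads in the parental libraries and 6 and 3 in the deletion libraries. As markers of the labelled mycelium, the actin gene acnA, the tubulin gene benA and the chitin synthase gene chsB had at least 12406 reads in every library. In the authors' deposited table acnA and benA rose 1.21-fold and 1.51-fold (q = 1.76e-19 and 8.13e-74), and chsB was not called (q = 0.0833). Markers of conidia and the stalks that bear them were also present, and none of the 7 was at 0 in any library. Their summed level was 1858 and 1734 normalized reads in the parental and 835 and 790 in the deletion libraries. The regulator gene abaA (AN0422) had the largest fall in normalized reads, with 1153 and 1120 against 127 and 125. The other 6 markers summed to 705 and 614 in the parental and 708 and 664 in the deletion libraries. That sum hid opposite changes, because falls of brlA, rodA and wA were offset by a rise of yA. In normalized reads, rodA had 160 and 136 against 28.9 and 31.3, and wA 305 and 280 against 158 and 138. For yA these values were 104 and 93.2 against 429 and 408, and wetA and dewA were not called. At a q-value under 0.05 in the authors' deposited table, 4 of the 7 (brlA, abaA, rodA and wA) were lower in the deletion strain, where 35.9% of all genes tested were lower. The pigment gene yA (AN6635) was higher, 4.26-fold (q = 4.78e-44) per the authors' deposited table, where 36.3% of all genes tested were higher. The part of conidial cells in the differences below was not tested. In such bulk samples, fewer cells of a type and less RNA per cell cannot be told apart.

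The 6 genes covered 19270 bp, from position 481247 to 500516 in the deposited tables, which name no chromosome; the genome build is not given in the sources used here. RefSeq (assembly ASM1142v1) places all 6 on chromosome VII in the same order. AN8910 (positions 481247 to 489372, plus strand, 8126 bp) was the longest. AN8909 (489393 to 490520) and AN8908 (491880 to 492728) lay behind it on the same strand. Only 20 bp separated the end of AN8910 from the start of AN8909, and reads there could come from either transcript. AN8907 (495992 to 497066) and AN8906 (497422 to 498525) lay on the minus strand, 355 bp apart. AN8905 (498741 to 500516) was on the plus strand, so AN8906 and AN8905 pointed away from each other across 215 bp. On the other side, 4539 bp without an annotated gene separated AN8910 from AN8911.

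All 6 genes had lower values in both deletion libraries than in both parental libraries, but by very different amounts. In the authors' deposited table all 6 were lower with a q-value under 0.05, a call that 35.9% of the 10505 genes tested also received, and 72.2% were called in either direction. At least 2-fold lower were 6 of the 6 and 18.1% of all genes tested. The members' median log2 change was -3.53, against -0.01 over the 10139 tested genes with reads in both strains. These shares are set side by side only, because the same comparison chose the genes. Together the 6 genes had 472 and 485 CPM (reads scaled to a library's total on genes) in the parental libraries and 10.3 and 10.5 in the deletion libraries. AN8910 alone made up 70.2% and 71.0% of those reads in the parental libraries, and 2.76% and 3.60% in the deletion libraries.

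AN8910, the synthase gene, had 11540 and 11379 reads in parental libraries a and b, and 9 and 12 in deletion libraries a and b. After division by the size factors these were 10045 and 10498 against 10.01 and 13.4 normalized reads. The deletion strain thus kept 0.114% of the parental level, with a 95% interval of 0.0706 to 0.174%. This interval and those below are exact (Clopper-Pearson) and cover counting error only. By the same measure the deleted gene mpkA kept 0.0834% (95% interval 0.0381 to 0.158%). Per kb, the deletion strain had 1.44 normalized reads on AN8910 and 3.86 on mpkA. Whether the few reads left on AN8910 came from its own transcripts was not tested. Between single libraries of the 2 strains the ratio of AN8910 lay between 749-fold and 1049-fold. Among falls, that of AN8910 ranked 4 by size over the 10250 genes with a finite ratio in the authors' deposited table.

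AN8909, a gene of unknown function directly behind AN8910, was also nearly without reads in the deletion strain. It had 133 and 149 reads in the parental libraries, and 1 and 0 in the deletion libraries. The ratio of the means in the authors' deposited table was 228, with an exact 95% interval of 40.3 to 8978. Since it rested on 1 read, the size of this difference is known only within that interval. Without deletion library a, edgeR's log2 change moved from -7.55 to -10.05, and without library b to -6.70. With 1 read left, the level of AN8909 was not resolved in the deletion strain. Because of the short gap, reads on AN8909 could come in part from AN8910 transcripts in either strain. In the parental strain AN8909 had 112 normalized reads per kb, against 1264 for AN8910. The origin of the AN8909 reads was not tested, so the ratio may not be that of AN8909 alone.

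AN8907 is annotated as a putative C-4 sterol methyl oxidase, the kind of enzyme that helps remove methyl groups during ergosterol synthesis in yeast. It had 3701 and 3486 reads in the parental libraries and 100 and 129 in the deletion libraries. The 2 parental libraries almost coincided after scaling, at 3222 and 3216 normalized reads, and the deletion libraries were at 111 and 144. The ratio was 25.2 in the authors' deposited table, with an exact 95% interval of 22.1 to 28.9. AN8907 therefore kept 3.97% of its parental level, and its deletion libraries still held more reads than those of AN8910.

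AN8906 and AN8905, which point away from each other, differed less. AN8906, annotated only by orthologs in other aspergilli, had 420 and 434 reads in the parental and 98 and 120 in the deletion libraries, a ratio of 3.15 (exact 95% interval 2.71 to 3.67). AN8905, a putative cytochrome P450, had 607 and 547 reads in the parental libraries and 112 and 62 in the deletion libraries. Its ratio was 5.33 (exact 95% interval 4.54 to 6.28). The 2 deletion libraries of AN8905 lay apart from each other. Library a held 64.4% of their 174 reads (exact 95% interval 56.8 to 71.5%), where equal levels would give 50.1%. This log2 difference between libraries, 0.84, was larger than that of 99.5% of the 1099 genes with 87 to 348 reads. The higher deletion library was still below both parental libraries, and the ratio between single libraries ran from 4.05 to 7.62. AN8908, another gene known only by orthologs, had the fewest parental reads of the 6. It had 45 and 33 reads in the parental and 6 and 10 in the deletion libraries, a ratio of 3.90 (exact 95% interval 2.27 to 7.19).

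**Figure D1:**
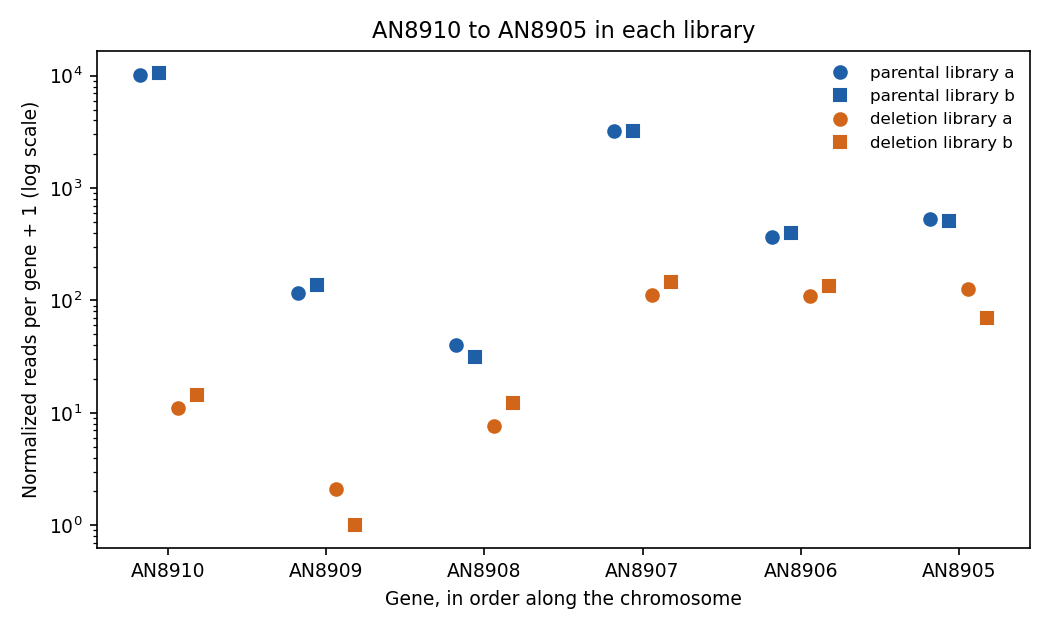
Normalized reads per gene plus 1 (log axis) for the 6 genes in chromosome order, in parental libraries a and b (blue) and deletion libraries a and b (orange). Both deletion points lie below both parental points for all 6 genes. By strain means the gap is widest for AN8910 (libraries at 10045 and 10498 against 10.01 and 13.4) and narrowest for AN8906.

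The order of the genes by level, as normalized reads per kb of gene, differed between the strains. In the parental strain AN8907 was highest with 2994 per kb, followed by AN8910 with 1264, AN8906 with 347, AN8905 with 291, AN8909 with 112 and AN8908 with 41.0. The parental libraries of neighbours in this order did not overlap. In the deletion strain AN8907 had 119 per kb, AN8906 110, AN8905 54.6, AN8908 10.5, AN8910 1.44 and AN8909 0.493. AN8907 and AN8906 there overlapped, with libraries at 103 and 134 against 98.7 and 122 per kb, and the RefSeq gene lengths reversed their order. AN8910 thus had rank 2 in the parent and rank 5 without mpkA, there above only AN8909, whose level rested on 1 read. The level of AN8907 per kb was 2.37 times that of AN8910 in the parental strain and 82.4 times in the deletion strain. The latter value rested on 21 AN8910 reads over both deletion libraries and has no interval. Among all 10721 genes with AN identifiers, the level of AN8910 per kb stood at percentile 76.2 in parental and 10.05 in deletion libraries. AN8907 went from percentile 89.8 to 35.1, AN8906 from 46.1 to 34.3 and AN8905 from 42.9 to 28.6.

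**Figure D2:**
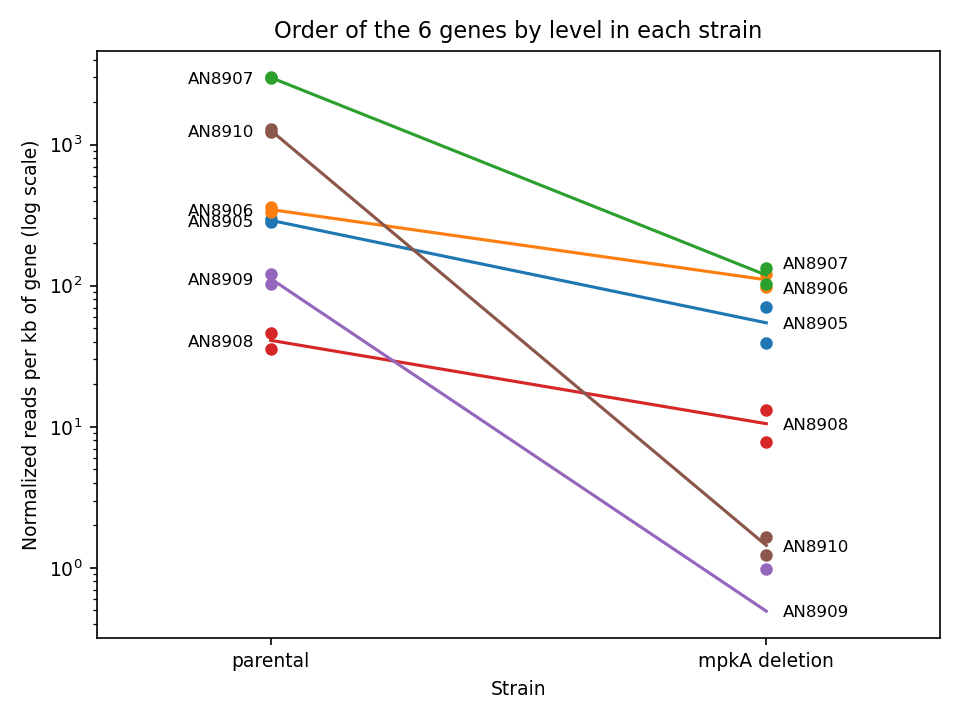
Level of each gene in normalized reads per kb (log axis) in the parental and the mpkA deletion strain; lines join strain means and points are libraries, without the AN8909 library that had 0 reads. The steep line of AN8910 crosses those of AN8908, AN8906 and AN8905, and that of AN8909 crosses the line of AN8908, while AN8907 stays highest at 2994 and 119 per kb.

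The genes beside these 6 did not share one direction. Of 27 genes with identifiers from AN8896 to AN8903 and from AN8911 to AN8930, 26 were tested, and AN8922 had no reads. Of these, 11 were lower, 5 higher and 10 not called at a q-value under 0.05 in the authors' deposited table, where 35.9% of all genes tested were lower and 36.3% higher. At least 2-fold lower were 7 and at least 2-fold higher 2, where these calls took 18.1% and 9.12% of all genes tested. AN8928, counted as lower in both ways, was known to have fallen when this range was set. On the upstream side, AN8911, a predicted transmembrane transport gene, was the nearest and was not called. It had 8 and 18 reads in the parental and 15 and 10 in the deletion libraries (q = 0.814 in the authors' deposited table). Beyond the end of AN8905, genes numbered outside this range came first.

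AN8913, predicted to encode a protein anchored to the membrane by glycosylphosphatidylinositol, went the opposite way 10.2 kb upstream of AN8910. It had 17 and 10 reads in the parental and 734 and 762 in the deletion libraries. In the authors' deposited table it was 69.4-fold higher in the deletion strain (q = 9.53e-250), with an edgeR log2 change of 6.08 (SE 0.14). Its neighbour AN8914, of unknown function, had 236 and 215 reads against 21 and 21 and fell 8.62-fold in the authors' deposited table (q = 2.31e-34). AN8928, an ABC transporter gene that lay 75.3 kb upstream of AN8910, was near AN8910 in level and in change. It had 10855 and 10397 reads in the parental and 8 and 10 in the deletion libraries, a ratio of 948 (exact 95% interval 600 to 1601). Between AN8928 and AN8910 lay genes that were lower, higher and not called, so the falls were not continuous along this stretch. Next to AN8928, AN8927 and AN8926 had no reads in the deletion strain, and 4 and 8 reads (AN8927) and 6 and 6 reads (AN8926) in the parental libraries. Against a floor of 3 reads over both deletion libraries, they were at least 3.25-fold and 3.22-fold lower (q = 0.0371 and 0.0376 in the authors' deposited table). That floor leaves out the counting error of the parental reads; the exact 95% interval, which includes it, began at 2.23-fold lower for both. AN8930, with zinc-binding transcription factor domains, was given as 3.25-fold higher by the authors' deposited table (q = 2.19e-05).

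On the side of AN8905, RefSeq places AN11149 and AN11143 next, and these were added after the values had been seen. AN11149, with a predicted sulfuric ester hydrolase domain, began 867 bp beyond AN8905 and was 5.20-fold higher in the deletion strain (q = 3.94e-38) in the authors' deposited table. The authors' deposited table gave AN11143, a putative glucoamylase, as 2.71-fold lower (q = 1e-04). AN8903, a putative peptide transporter gene, had means of 1030 and 858 normalized reads and fell 1.20-fold in the authors' deposited table (q = 0.0009). Farther on, AN8901, a predicted transport gene, fell 3.82-fold (q = 0.0031), AN8900 3.86-fold (q = 8.15e-09) and AN8899 2.17-fold (q = 2.90e-08), per the authors' deposited table. AN8901 rested on 40 and 59 against 15 and 6 reads, and without deletion library a its edgeR log2 change moved from -1.93 to -2.71. With all 8 added genes, 13 of 34 were lower and 8 higher. Among the added genes, AN11151 rose 24.3-fold (q = 6.89e-29) and AN12277 7.69-fold (q = 4.56e-21) in the authors' deposited table. Without parental library a, edgeR's log2 change for AN11151 moved from 4.53 to 5.20. AN8910 to AN8905 thus had a gene that was not called on one side and a gene called higher on the other.

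**Figure D3:**
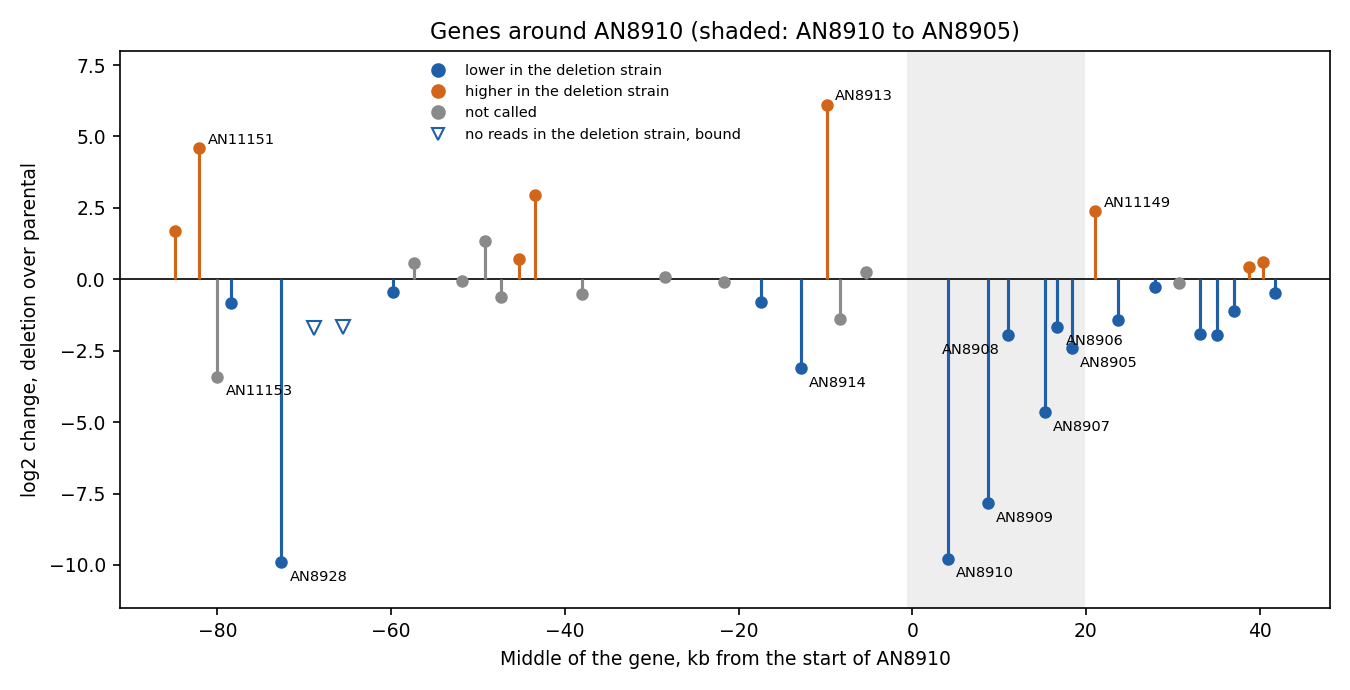
The log2 change (deletion over parental) of genes around AN8910 against the distance of each gene's middle from the start of AN8910 in kb, coloured by the authors' call at a q-value under 0.05; the shaded span holds AN8910 to AN8905. Genes with at most 3 reads in both strains are left out, and triangles set genes with no reads in the deletion strain against a floor of 3 reads. AN8928 matches AN8910 in size of change, and AN8913 and AN11149 point upward on either side of the span.

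Among genes annotated as polyketide synthase, AN8910 was 1 of 3 with a high level in the parental strain. The words polyketide synthase stood in the annotation of 30 genes, of which AN6431 and AN6448 had no reads. Among the 30, AN7814 and AN7815 are annotated as polyketide synthase/fatty acid synthase beta and alpha, and AN7814 was called lower. Per kb, AN3230 (1501 normalized reads), AN2547 (1452) and AN8910 (1264) came first in the parental strain, and the next, the conidial pigment gene wA (AN8209), had 42.8. AN8910, AN3230 and AN2547 together held 93.5% and 93.8% of all polyketide synthase reads in the parental libraries, and 37.7% and 37.1% in the deletion libraries. AN8910 held 29.7% and 30.2% of these reads in the parental libraries and 0.497% and 0.665% in the deletion libraries, where it ranked 17th per kb. The summed reads of the 30 genes went from 38846 and 37640 to 1810 and 1805.

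Of the 27 other polyketide synthase genes tested, 13 fell, 2 rose and 12 were not called in the authors' deposited table, beside 35.9% lower and 36.3% higher among all genes tested. Their median log2 change was -0.92, against -0.01 over the tested genes with reads in both strains. Besides AN8910, the largest falls were those of AN3230 (173-fold), the orsellinic acid synthase gene orsA (AN7909, 31.1-fold), AN2032 (29.3-fold), AN2035 (18.3-fold) and AN2547 (16.7-fold) in the authors' deposited table. Of these, orsA, AN2032 and AN2035 had at most 9 reads in a deletion library. AN2547 kept the most, with 616 and 607 reads in the deletion libraries against 12840 and 12582. Only AN6791 and AN7903 rose among the tested genes, 2.01-fold (q = 3.83e-21) and 4.47-fold (q = 0.0166) in the authors' deposited table. AN6791 had 384 and 326 parental against 560 and 584 deletion reads, and AN7903 8 and 6 against 17 and 33. With edgeR on the recovered reads AN1784 was called higher as well (adjusted p = 0.0377), on 13 and 14 against 21 and 17 reads.

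**Figure D4:**
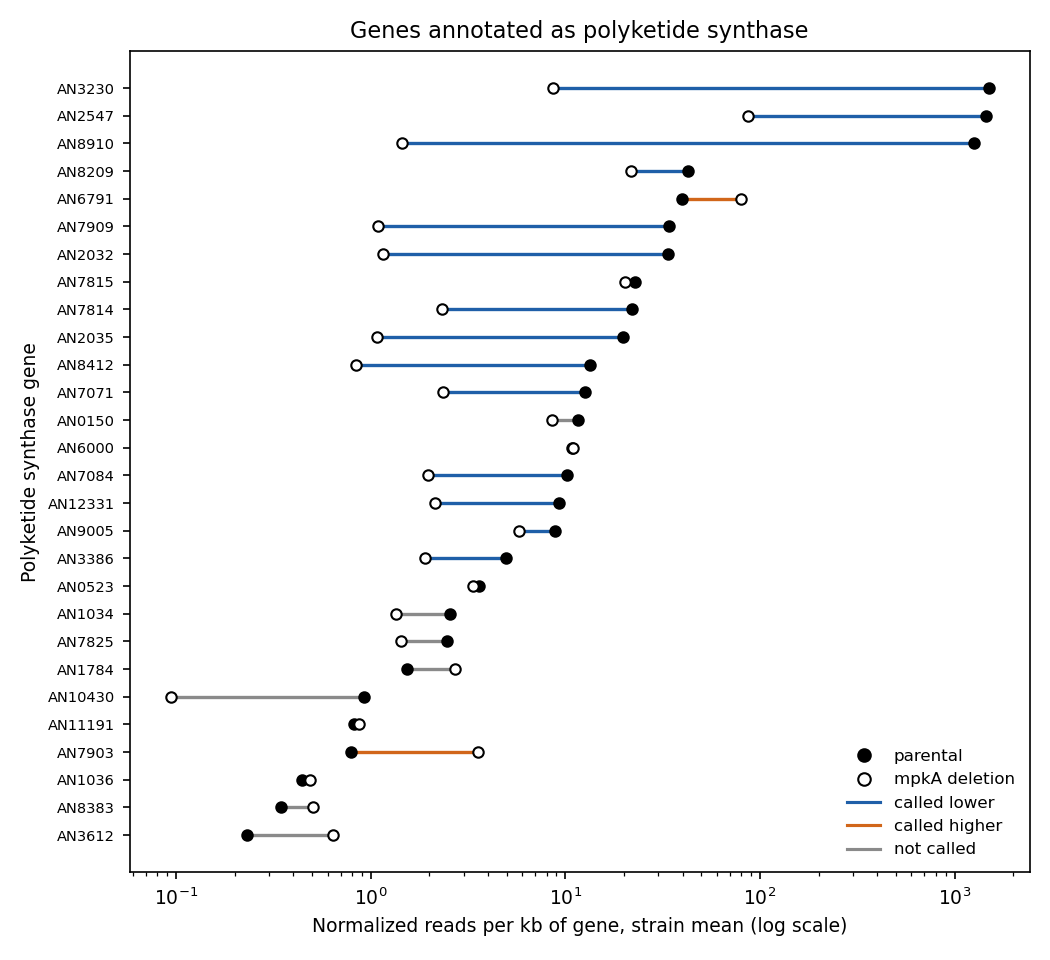
Strain means in normalized reads per kb (log axis) of the 28 polyketide synthase genes with reads in both strains, ordered by their parental level; lines join the parental (filled) and deletion (open) values and are coloured by the authors' call. AN3230, AN2547 and AN8910 stand apart in the parental strain (1501, 1452 and 1264), and AN8910 has the longest line, down to 1.44.

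None of the genes that supply or activate the polyketide machinery was called lower with AN8910 in the authors' deposited table. Polyketide and fatty acid synthases draw on the same acetyl and malonyl units. The fatty acid synthase genes fasA and fasB, which use these units and do not supply them, were listed with the supply and activation genes. Of these 7 precursor genes, 6 were higher, 0 lower and 1 not called in the authors' deposited table. The shares over all genes tested were 36.3% higher and 35.9% lower. The median log2 change of the 7 genes was 1.19, against the same -0.01. The ATP citrate lyase genes aclA (AN2435) and aclB (AN2436), whose enzyme makes cytosolic acetyl-CoA, rose 2.39-fold and 2.96-fold in the authors' deposited table (q = 1.25e-305 and 0). The acetyl-CoA carboxylase gene accA (AN6126), whose enzyme makes malonyl-CoA, rose 2.28-fold in the authors' deposited table (q = 1.60e-213). It had 6476 and 6054 reads in the parental and 11410 and 11521 in the deletion libraries. The fatty acid synthase genes fasA (AN9407) and fasB (AN9408) rose 2.51-fold and 1.99-fold in the authors' deposited table (q = 0 and 3.07e-191). The acetyl-CoA synthetase gene facA (AN5626) rose 1.23-fold in the authors' deposited table (q = 2.07e-11). No call was made for npgA (AN6140), which encodes the transferase that attaches the carrier arm polyketide synthases need. It had 742 and 633 reads in the parental and 459 and 522 in the deletion libraries (q = 0.20 in the authors' deposited table). In edgeR on the recovered reads npgA was called lower, with a log2 change of -0.19 (SE 0.08, adjusted p = 0.03).

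Genes with the same annotation as AN8907 or AN8905 were looked up after the values had been seen. Among 5 genes annotated as C-4 sterol methyl oxidase, AN3638 also had a large fall, 50.7-fold in the authors' deposited table (q = 0), with 6866 and 6221 reads against 100 and 107. AN6506 and AN6973 were 1.33-fold and 1.12-fold higher (q = 3.69e-17 and 7.30e-06) in the authors' deposited table, and the direction of AN6973 turned under scaling by library totals (log2 change -0.047). AN9275 had 2 reads in 1 parental library and 0 in the other 3 libraries. Of 96 other genes tested whose text names cytochrome P450, 39 were lower, 17 higher and 40 not called in the authors' deposited table, where 35.9% of all genes tested were lower and 36.3% higher.

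The genes most like AN8910 were found by the distance between log2(normalized reads + 1) values over the 4 libraries, among all genes of the table. AN8928 was closest by a wide margin, at a distance of 0.328. It was followed by AN6788, a putative transcription factor gene, at 1.28, and by AN3229, annotated as related to aryl-alcohol oxidase, at 1.45. The deleted gene mpkA itself came next, at 2.11, and AN2844, annotated only by orthologs, after it, at 2.38. AN6788 had 6749 and 6235 reads in the parental and 6 and 11 in the deletion libraries, AN3229 had 12716 and 11940 against 24 and 18, and AN2844 had 21676 and 20588 against 36 and 20. With 2 libraries a strain, this likeness describes a level and a difference, and the distance has no test.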

How the data were processed

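Reads per gene were compared between 2 Aspergillus nidulans strains with 2 libraries each. The submitters' processing notes name Bowtie2, HTSeq and DESeq; versions, build and counting options were not given in sources used here. Per the labels' protocols a TruSeq kit was used, and that name alone does not settle whether the strand was kept. The signal values deposited by the authors are means over the 2 libraries of a strain of reads divided by size factors. The ratio (fold), p-values and q-values are the authors' deposited comparison, called at q under 0.05. Log2 values were recoded as deletion minus parental; a q-value printed as 0 was listed as 0. Of the 3 tables, 2 columns belong to no sample used here and were left out.

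Because 2 tables scale the same strain's libraries with unlike size factors, both libraries' whole reads could be solved from the pair of means. Whole reads came out for 100% of 10930 genes in both strains (tolerance 0.25 reads, largest deviation 0.155), and 0 solutions were negative. In simulated means 99.9% of parental and 100% of deletion values were recovered exactly. The totals were 34871842 and 33027324 parental and 31674270 and 31609185 deletion reads. The table held means where the design had foreseen that counts might be found. Alternatives on these reads were edgeR 4.0.16 (quasi-likelihood test, TMM, filterByExpr, Benjamini-Hochberg adjustment, R 4.3.3), with other scaling, without filter and without each library, DESeq2 1.42.0, and limma 3.58.1 (prior count 2). All 6 genes passed the filter. SE is the log2 change over the root of edgeR's F. In data simulated for this comparison (9338 genes, 200 changed), edgeR recovered 84% of genes changed 1.5-fold and 95% of those changed 3-fold. Replicates may be technical, so p-values cover only the spread among these libraries.

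Lengths are gene spans in the files. Of the 10930 identifiers, 9974 matched RefSeq, used only for names, neighbours and 1 length check. Named genes were the 6 members, mpkA, genes beside them called with a change of at least 2-fold and the nearest on each side that was not, the 5 largest called falls and rises among polyketide synthases, the 7 precursor genes, the markers and the 5 genes nearest to AN8910. The members and lists were chosen with earlier results of these data known. No sequence was used.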

Additional observations from a re-analysis of the deposited data

How the results depend on the processing

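All 6 genes were lower in the deletion strain under every alternative run. Their median log2 change was -3.75 under library totals and -2.997 with 10 normalized reads added to both strain means, and lay between -3.70 and -3.53 without any 1 library. Over all genes the median was -0.02 with TMM and -0.21 with library totals, which took the calls of edgeR from 4109 lower and 3966 higher to 4997 and 3066. Under library totals chsB (AN2523) turned to -0.15 and AN6973 to -0.047. Of the precursor genes, npgA was called lower (1 gene in place of 0) in edgeR with TMM, DESeq2 size factors, library totals or no filter and in limma, 0 were lower in DESeq2, and in edgeR 0 without parental library a or deletion library a and 1 without either library b; the cause was not tested. Counts of the genes beside the 6 and of polyketide synthases stayed within 1.5 times, except that the added genes raised the higher calls from 5 to 8, by construction. Of the 5 genes nearest to AN8910, 4 remained with a pseudocount of 10 and 3 with centred values, which ignore the level. With the RefSeq gene lengths, 5 of 6 places in the order of levels were kept on average over the strains. No paired analysis was possible because the recovered libraries carry no replicate number. Exon lengths were not used, so that alternative was not run. Depth limits AN8909, AN8926 and AN8927, which had 0 or 1 read in the deletion strain.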
